A study of Mus musculus with 20 samples.

Results

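The S100 proteins examined here are 10 members of a family of small calcium-binding proteins: S100a3, S100a4, S100a6, S100a7a, S100a8, S100a9, S100a10, S100a11, S100a14 and S100a16. They were chosen by gene symbol, without use of their values, and are 10 of the 53380 genes in a table of bulk RNA-seq of sorted mouse epidermal cells. All 10 lie on chromosome 3 (mm10): S100a14, S100a16, S100a3, S100a4, S100a6, S100a7a, S100a8 and S100a9 lie in this order between 90526856 and 90695721, and S100a11 (93520488 to 93526287) and S100a10 (93555080 to 93564643) form a second group further along. S100a2 and S100a5, which are not members, lie within the first group. All are transcribed from the + strand except S100a9.

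The study sorted 5 populations from dorsal epidermis to ask how keratinocytes with the surface protein Thy1 relate to other epidermal cells. There were 4 libraries of Thy1hi cells (Thy1+Sca1+) and 4 of Thy1- cells (Thy1-Sca1+), both integrin-α6+ keratinocytes of the epidermis between hair follicles. There were 4 libraries of CD34+Sca1- hair follicle stem cells (HFSCs), 5 of Thy1+Sca1- dendritic epidermal T cells (DETCs), the γδ T cells that live in the epidermis, and 3 of Thy1hiYFP+ cells, in which an inducible Cre driven by Thy1 sequences had switched on a YFP reporter. The labels give every library the genotype Thy1.2CreERT2-Rosa26-EYFP, no treatment and an age that rises by a week per sample from 8 to 27 weeks, and mark the YFP+ cells as Sca1-. The study's methods instead give 8-week-old mice, wild-type for the sorts other than YFP+, induced reporter mice for YFP+, and a Sca1+ gate for the YFP+ cells. The methods name pooled mice in places, and which libraries were pools is not given.

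Reads on genes ran from 7781256 to 12982393 per library, and 802 to 6960 of them fell on the 10 S100 genes. Marker genes largely followed the sorts: the summed normalized count of 7 T cell markers was 19486 to 40345 in DETCs and 119 to 429 elsewhere, and that of 8 bulge markers was 16918 to 22629 in HFSCs and 997 to 12180 elsewhere. The bulge sum of 12180 was that of Thy1hiYFP+ replicate 3. The other Thy1hiYFP+ libraries had 3413 and 4228, and DETC, Thy1hi and Thy1- libraries had at most 5730. In a principal component analysis (PCA), replicate 4 of the Thy1hi and of the Thy1- cells stood apart from the other libraries of their populations on the second component (43.9 and 49.0 against -87.1 to -34.6), and DETC library a on the first (198 against 113 to 124). HFSC replicate 4 had the lowest share of reads on the ribosomal RNA gene Rn45s (13.1%, against 18.6% to 41.5% elsewhere). Library preparation is described as 2 batches without a key to the libraries, so batch and population cannot be told apart.

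S100 proteins are EF-hand proteins that form dimers and, on binding calcium, expose a surface that grips partner proteins such as annexins and myosin. S100a10 is the exception that no longer binds calcium and pairs constantly with annexin A2. In skin the S100 genes lie within the epidermal differentiation complex, where S100a8, S100a9 and S100a7a are known for their induction in inflamed or wounded keratinocytes and S100a3 for the hair cuticle.

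The sequences just upstream of 3 members are shown. S100a4 and S100a6 follow each other among the members, with S100a5 between them, and had different levels across the populations. S100a11 was one of a group that varied together. The sequences are RefSeq promoter windows (GRCm38.p6), and 8 of the 10 members had one (none for S100a10 and S100a14). Each run is the 250 bases before a transcription start, 5′ to 3′ on the + strand, with capitals marking matches to the motifs searched.
S100a4, chr3:90603520-90603769: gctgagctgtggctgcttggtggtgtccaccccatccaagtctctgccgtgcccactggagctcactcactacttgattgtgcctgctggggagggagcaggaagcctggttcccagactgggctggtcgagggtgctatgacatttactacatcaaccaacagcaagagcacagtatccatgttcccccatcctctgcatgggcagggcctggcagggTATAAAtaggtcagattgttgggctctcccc
S100a6, chr3:90612644-90612893: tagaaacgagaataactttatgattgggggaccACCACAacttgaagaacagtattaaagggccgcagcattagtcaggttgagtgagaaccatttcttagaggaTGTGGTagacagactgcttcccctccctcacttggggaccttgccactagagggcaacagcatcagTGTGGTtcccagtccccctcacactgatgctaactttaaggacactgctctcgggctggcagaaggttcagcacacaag
S100a11, chr3:93520246-93520495: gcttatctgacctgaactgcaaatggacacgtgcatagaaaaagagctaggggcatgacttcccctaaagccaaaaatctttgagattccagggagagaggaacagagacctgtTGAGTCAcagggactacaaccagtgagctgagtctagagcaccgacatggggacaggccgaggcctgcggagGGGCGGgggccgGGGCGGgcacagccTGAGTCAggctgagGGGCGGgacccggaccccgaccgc
The motifs were an AP-1 site (TGANTCA), a RUNX site (TGTGGT), a GC box (GGGCGG) and a TATA box (TATAAA), each on both strands. The S100a4 window held a TATA box that began 31 bases before the start, the S100a6 window held 3 RUNX matches, 1 of them on the other strand (ACCACA), and the S100a11 window held 2 AP-1 matches and 3 GC boxes. Windows of members not shown held the same motifs. S100a8 and S100a3 had a TATA box, S100a9 and S100a16 a RUNX match, S100a16 an AP-1 match, and S100a3, S100a9 and S100a16 a GC box. Among all 32851 windows of this length, 12.4% held the TATA box, 14.0% the RUNX match, 6.75% the AP-1 match and 32.7% the GC box. A match is a description of the letters, and no binding was measured.

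Values are normalized counts, that is, reads per gene divided by a size factor per library. Of the 10 members, 8 reached a value of 10 in at least 3 libraries and were tested. S100a8 and S100a9 did not. Differences are log2 fold changes on log2(normalized count + 1) with their standard error (SE), and adjusted p-values are from limma with Benjamini-Hochberg adjustment over the 17204 genes tested. A gene was called at an adjusted p under 0.05.

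**Figure D1:**
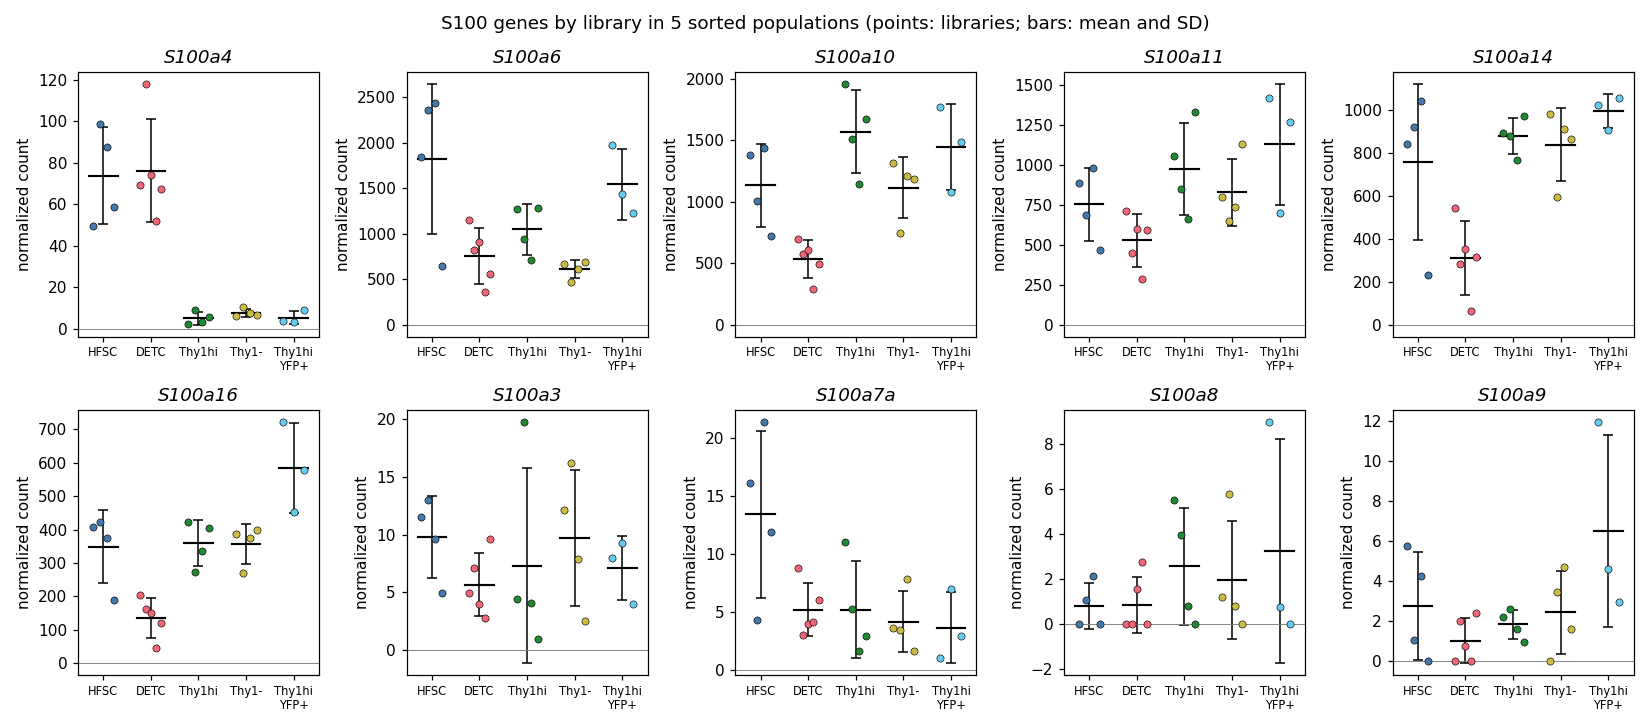
Normalized count (y axis, linear, a separate range per gene) of each S100 gene in each library (points) of the 5 populations, with the mean and SD as bars. S100a4 sits between 49.6 and 118 in HFSCs and DETCs and at most at 10.4 elsewhere, S100a10, S100a14 and S100a16 are lowest in DETCs, and S100a3, S100a7a, S100a8 and S100a9 stay below 22 in every library.

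S100a4 set 2 populations apart from the rest. It encodes metastasin, also called fibroblast-specific protein, a protein that binds the heavy chain of non-muscle myosin. It was 13.0-fold lower in Thy1hi cells than in HFSCs and 13.4-fold higher in DETCs than in Thy1hi cells. In the 4 HFSC libraries S100a4 was 49.6, 98.8, 87.7 and 58.9, and in the 5 DETC libraries 69.5, 118, 74.3, 52.1 and 67.3. In Thy1hi cells it was 2.21, 9.22, 3.25 and 5.82. In Thy1- cells it was 6.08, 10.4, 7.89 and 6.56, and in Thy1hiYFP+ cells 3.99, 3.10 and 8.92. Every HFSC and DETC library was above every library of the other populations, while HFSCs and DETCs overlapped with each other.

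The mean of S100a4 was 76.2 ± 24.8 (SD, n = 5) in DETCs, 73.7 ± 23.3 (SD, n = 4) in HFSCs, 7.74 ± 1.94 (SD, n = 4) in Thy1- cells, 5.34 ± 3.14 (SD, n = 3) in Thy1hiYFP+ cells and 5.13 ± 3.12 (SD, n = 4) in Thy1hi cells. In this order only the step from HFSCs to Thy1- cells passed the test. Against HFSCs the log2 difference was -3.70 (SE 0.40, adjusted p = 3.46e-06) for Thy1hi cells, -3.07 (SE 0.40, adjusted p = 8.37e-05) for Thy1- cells and -3.61 (SE 0.44, adjusted p = 1.28e-05) for Thy1hiYFP+ cells. DETCs exceeded Thy1hi cells by 3.75 (SE 0.38, adjusted p = 1.52e-07), Thy1- cells by 3.12 and Thy1hiYFP+ cells by 3.66 on the same scale. DETCs and HFSCs differed by 0.05 (adjusted p = 0.93), with an interval of -0.75 to 0.85. An exact two-sided permutation test gave p = 0.0286 for either keratinocyte population of 4 libraries against HFSCs, the smallest p that 4 against 4 allows.

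The call for S100a4 held in each of these comparisons in all 30 unblocked alternatives of processing and of libraries left out that kept the gene in the test. The summed level of 5 melanocyte markers moved partly with it, at 124 to 289 in HFSCs and 168 to 298 in DETCs against 34.2 to 94.1 in Thy1hi, 52.9 to 130.3 in Thy1- and 46.6 to 75.1 in Thy1hiYFP+ cells. Of the 4 melanocyte markers tested, Dct, Tyrp1 and Pmel were called lower in Thy1hi cells than in HFSCs and Dct, Tyrp1 and Kit higher in DETCs than in Thy1hi cells, and Mlana was at 0 to 10.9 in every library. Fewer were called for Thy1- cells: Dct alone was lower than in HFSCs, and Kit alone was higher in DETCs. Pmel was at -0.43 in DETCs against Thy1- cells (adjusted p = 0.59). In Thy1hiYFP+ cells Dct and Kit were called lower than in HFSCs and than in DETCs. Their part in the S100a4 difference was not tested.

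Other marker lists were set beside S100a4 as well. The summed level of 6 fibroblast markers was 224.9 to 767 in HFSCs, 353 to 1287 in DETCs, 186 to 1946 in Thy1hi, 123 to 215 in Thy1- and 44.6 to 218 in Thy1hiYFP+ cells, and that of 8 Langerhans and myeloid markers was 82.7 to 4598, 971 to 2939, 496 to 1164, 903 to 1819 and 586 to 1091 in the same order. Limma called none of either list in Thy1hi cells against HFSCs or in DETCs against Thy1hi cells, with 2 fibroblast markers at an unadjusted p under 0.05 in the first. In Thy1hi cells against HFSCs edgeR called 1 fibroblast marker and DESeq2 called 1 fibroblast and 2 myeloid markers, and in DETCs against Thy1hi cells DESeq2 called 1 of each and edgeR 0. Limma called 2 of the 6 fibroblast markers higher in DETCs than in Thy1- cells (18.9% of all genes). It called 4 lower in Thy1hiYFP+ cells than in DETCs (20.5% of all genes) and 1 lower than in HFSCs (6.33%). In Thy1- cells against HFSCs limma called 0 of either list, while edgeR and DESeq2 each called 1 fibroblast marker. No myeloid marker was called by limma in these comparisons. The part of either list in the S100a4 difference was not tested. T cell markers summed to 163 to 374 in HFSCs and 234 to 429 in Thy1hi cells. Among Thy1hiYFP+ libraries, replicate 3 was highest in summed bulge markers (12180) and in S100a4 (8.92). The part of bulge markers in the S100a4 values was not tested. Of the 584 exon bases of S100a4, 302 (51.7%) are shared on the same strand with the predicted gene Gm42674, which is listed at 0 in all 20 libraries. How reads on shared exons were counted is not given in the sources used here, so the level of S100a4 may be understated. In bulk libraries, fewer cells that carry a transcript and less transcript per cell cannot be told apart.

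S100a6 was ordered differently. It encodes calcyclin, named for its rise in proliferating cells, which binds annexins and the calcyclin-binding protein Cacybp. Its values in Thy1hi cells, 1269.6, 940.5, 707 and 1283, all lay above those in Thy1- cells, 669, 469, 613 and 689. In HFSCs S100a6 was 1846, 2360.1, 2436 and 645, of which replicate 4 fell among the Thy1- values. In Thy1hiYFP+ cells S100a6 was 1979.7, 1433 and 1226, all above the Thy1- values, and in DETCs it was 1151, 825, 908, 359 and 559.7. The means ran from 1822 ± 827 (SD, n = 4) in HFSCs through 1546 ± 390 (SD, n = 3) in Thy1hiYFP+, 1049.9 ± 278 (SD, n = 4) in Thy1hi and 761 ± 308 (SD, n = 5) in DETCs to 609.7 ± 99.4 (SD, n = 4) in Thy1- cells, and no 2 neighbours in this order differed by the test.

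Between Thy1hi and Thy1- cells, none of the 8 tested members was called, against 0.337% of all genes tested. No member had an unadjusted p under 0.05 in limma, and edgeR and DESeq2 also called 0. The largest difference was that of S100a6, 0.76 on the log2 scale (SE 0.37, adjusted p = 0.71, exact permutation p = 0.0286), and it was higher in Thy1hi cells in 4 of 4 pairs of libraries with the same replicate number. The summed fibroblast markers were also higher in Thy1hi cells in these pairs (1946, 983, 186 and 404 against 215, 215, 134 and 123), as were the summed basal keratinocyte markers (175207 to 233351 against 78616 to 126292), and their part in the S100a6 difference was not tested. The libraries of these populations deviated together by replicate number across genes, and a fit with the replicate as a block called S100a6 (adjusted p = 0.0093, against 0.153 to 1 in 31 other alternatives). With the block, 1 of 8 members was called, where 6.61% of all genes were, 3.42% higher in Thy1hi cells. S100a10 was higher in 3 of 4 pairs, with a log2 difference of 0.50 (SE 0.27, adjusted p = 0.78; 0.083 with the block).

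**Figure D2:**
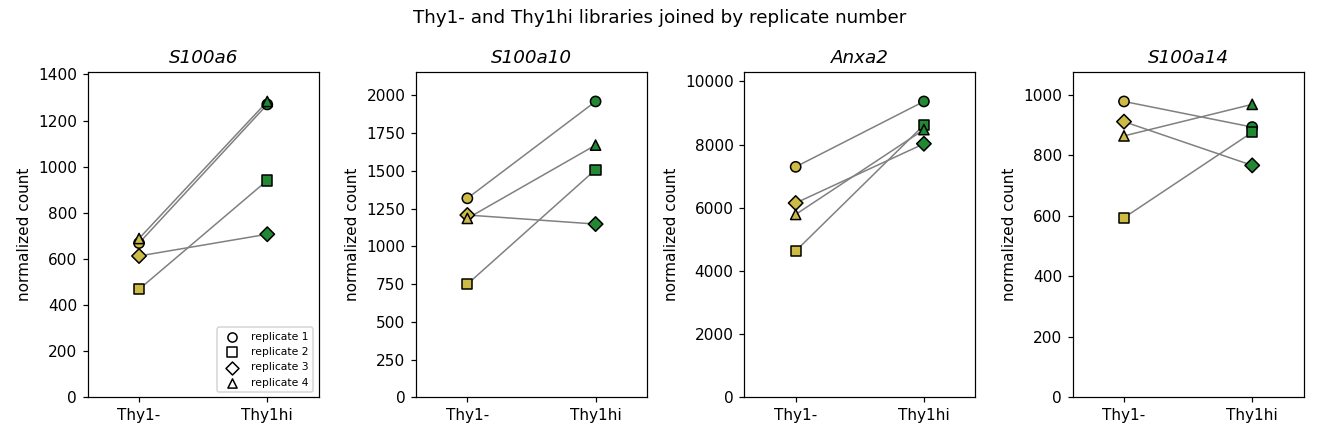
Normalized count (y axis, linear, from 0) of S100a6, S100a10, Anxa2 and S100a14 in Thy1- and Thy1hi libraries, with a line joining libraries of the same replicate number (marker shape). S100a6 and Anxa2 rise in 4 of 4 pairs, S100a10 in 3 of 4 and S100a14 in 2 of 4.

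For the other members the intervals were wide. S100a11, a partner of annexin A1, differed by 0.22 (interval -0.41 to 0.85), and the intervals for S100a14 (-0.91 to 1.08) and S100a16 (-0.73 to 0.73) were wider still. S100a4 was lower in Thy1hi cells in 4 of 4 pairs, at 2.21 to 9.22 against 6.08 to 10.4, and differed by -0.63 (SE 0.40, adjusted p = 0.91). The median log2 difference of the 8 members was 0.13, beside -0.02 over all genes tested.

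Between Thy1hiYFP+ and Thy1hi cells, none of the 8 members was called, where 0.0116% of all genes were. No member had an unadjusted p under 0.05 in this comparison. S100a16 was 722, 454 and 579.6 in Thy1hiYFP+ cells, above all Thy1hi values of 423, 271, 337 and 404, with a log2 difference of 0.70 (SE 0.38, adjusted p = 0.60). S100a6 differed by 0.57 (SE 0.40, adjusted p = 0.72).

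Against Thy1- cells, Thy1hiYFP+ cells had 0 of 8 members called by limma beside 0.761% of all genes, with 1 at an unadjusted p under 0.05. That member was S100a6, higher by 1.33 (SE 0.40, adjusted p = 0.12), with every YFP+ library above every Thy1- library. DESeq2 called it on the recovered reads (adjusted p = 0.024), edgeR did not, and it was also called when only these populations were fitted (0.031) and when HFSC replicate 4 left the common fit (0.031). Over 31 alternatives without a block the adjusted p ran from 0.024 to 0.41. The exact permutation p was 0.0571, the smallest that 3 against 4 libraries allow.

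In Thy1hi cells against HFSCs, 1 of 8 members was called, against 13.4% of all genes (6.86% lower), and it was S100a4. In Thy1- cells 2 of 8 were called, against 6.08% of all genes (3.52% lower): S100a4, and S100a6 at -1.42 (SE 0.37, adjusted p = 0.025). In Thy1hiYFP+ cells 1 of 8 was called, again S100a4, against 11.6% of all genes (6.33% lower). All of these were lower than in HFSCs. S100a16 was higher in Thy1hiYFP+ cells than in HFSCs by 0.79 (SE 0.38, adjusted p = 0.20) and passed without DETC a (0.049 to 0.45 over 31 alternatives).

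The S100a6 values in HFSCs and Thy1- cells overlapped, because HFSC replicate 4 had 645. The S100a6 call in Thy1- cells was lost when only these 2 populations were fitted (adjusted p = 0.075) and when HFSC replicate 1, 2 or 3 or Thy1- replicate 1, 2 or 3 was left out (0.058 to 0.083), within a range of 0.000555 to 0.083 over 31 alternatives. For Thy1hi cells the S100a6 difference was -0.66 (SE 0.37, adjusted p = 0.25), and it passed only without HFSC replicate 4 (-1.11, adjusted p = 0.023; 0.023 to 0.49 over 31 alternatives). That library was also lowest of the 4 HFSC libraries in S100a10 (719), S100a11 (466), S100a14 (229.8) and S100a16 (188), in the sum of 6 basal keratinocyte markers (53789 against up to 118779) and in that of 85 ribosomal protein genes (94235 against up to 198624). It was lowest too in the Langerhans and myeloid markers (82.7 against 2140 to 4598) and the stress keratinocyte markers (2429 against 9717 to 17920). Its bulge markers, at 22134, lay within the range of the other HFSC libraries. The part of these in the S100 values was not tested.

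S100a10, S100a11, S100a14 and S100a16 formed a group that was lowest in DETCs. S100a10 is the annexin A2 partner, S100a11 that of annexin A1, and S100a14 is an S100 protein of epithelia. S100a10 was 1959.6, 1508, 1148 and 1671 in Thy1hi cells and 695, 577, 612, 288 and 491 in DETCs, so that the populations did not overlap. It was 1318, 749.8, 1208 and 1185 in Thy1- cells, 1381, 1007, 1435 and 719 in HFSCs and 1768, 1078 and 1490.1 in Thy1hiYFP+ cells, each of them above all DETC values.

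S100a14 was 893, 876, 767 and 968 in Thy1hi cells, 978, 594, 911 and 864 in Thy1- cells and 1019.7, 906 and 1056 in Thy1hiYFP+ cells. It was 839, 921, 1041 and 229.8 in HFSCs and 544, 281, 351, 64.5 and 313 in DETCs. DETCs lay below the 3 keratinocyte populations and overlapped with HFSCs through HFSC replicate 4. S100a16 was 203, 162, 149, 43.9 and 120.1 in DETCs, 423, 271, 337 and 404 in Thy1hi cells and 388, 269.6, 373 and 400.0 in Thy1- cells. In HFSCs S100a16 was 407, 424, 375 and 188, of which the last fell within the DETC range.

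S100a11 differed least within this group. It was 709, 449, 598, 283 and 592 in DETCs, 1055, 848, 663 and 1328 in Thy1hi cells and 795, 649, 737 and 1126 in Thy1- cells. In HFSCs it was 883, 684, 976 and 466, and in Thy1hiYFP+ cells 1414, 699 and 1266. DETCs overlapped with Thy1hi, Thy1- and YFP+ cells by a single library and with HFSCs more widely.

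In DETCs against Thy1hi cells, 5 of 8 members were called, against 36.6% of all genes (19.9% higher and 16.6% lower), and 4 of them were lower: S100a14 by -1.77 (SE 0.45, adjusted p = 0.0040), S100a10 by -1.59 (SE 0.26, adjusted p = 5.54e-05), S100a16 by -1.54 (SE 0.33, adjusted p = 0.00095) and S100a11 by -0.91 (SE 0.29, adjusted p = 0.016). S100a6 did not pass (-0.53, SE 0.35, adjusted p = 0.26). The call for S100a11 was lost without Thy1hi replicate 4 (adjusted p = 0.069, over a range of 0.0033 to 0.069 in 31 alternatives). S100a4 was the member called in the other direction. The median log2 difference of the 8 members was -0.72, while that of all genes was near 0.

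Against Thy1- cells, 4 of 8 members were called in DETCs, against 34.1% of all genes (18.9% higher and 15.2% lower). S100a10, S100a14 and S100a16 were lower, by -1.09, -1.68 and -1.54, and S100a4 was higher. S100a11 differed by -0.69 (SE 0.29, adjusted p = 0.070) and was called in 4 of 31 alternatives, with the same total without Rn45s (0.023), with quantile normalization (0.0097) and without HFSC replicate 4 (0.049) or DETC replicate 1 (0.040), over a range of 0.0097 to 0.20. S100a6 differed by 0.22 (SE 0.35, adjusted p = 0.67; 0.33 to 0.97 over 31 alternatives).

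Thy1hiYFP+ cells against DETCs had 6 of 8 members called, against 38.1% of all genes (17.6% higher and 20.5% lower), with S100a16 (2.24), S100a14 (1.95), S100a10 (1.47), S100a11 (1.10) and S100a6 (1.10) higher in the YFP+ cells and S100a4 lower. The S100a6 call there had an adjusted p of 0.027 and was lost without DETC a, DETC b, or YFP+ replicate 1 or 2 (0.054 to 0.13; 0.0043 to 0.13 over 31 alternatives). The S100a11 call (adjusted p = 0.0081) was lost without YFP+ replicate 1 (0.061; 0.00096 to 0.061 over 31 alternatives).

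Against HFSCs, 4 of 8 members were called in DETCs, against 39.7% of all genes (18.5% lower), all lower: S100a16 by -1.45 (SE 0.33, adjusted p = 0.0016), S100a14 by -1.36 (SE 0.45, adjusted p = 0.022), S100a6 by -1.20 (SE 0.35, adjusted p = 0.0099) and S100a10 by -1.10 (SE 0.26, adjusted p = 0.0021). S100a11 differed by -0.53 (adjusted p = 0.15; called without HFSC replicate 4, at 0.049, and with quantile normalization, at 0.022; 0.022 to 0.39 over 31 alternatives). With a block over the 3 replicate numbers that HFSCs and DETCs share, which drops HFSC replicate 4 and DETC a and b, S100a11 was called as well (-0.54, adjusted p = 0.0062), beside 42.2% of all genes (19.6% lower). That these numbers pair libraries is uncertain. Deviations of libraries with unlike numbers correlated at up to 0.371, and those with the same number at up to 0.333. The median log2 difference of the 8 members was -1.11, beside 0.02 over all genes. The S100a14 call was lost when only these 2 populations were fitted (adjusted p = 0.10) and without DETC a or HFSC replicate 1, 2 or 3 (0.053 to 0.080; 0.0014 to 0.10 over 31 alternatives), and that of S100a6 when only these populations were fitted (0.053; 0.00019 to 0.053).

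Without DETC a, the library that stood apart, the number of members called in DETCs was 5 against Thy1hi cells, 4 against Thy1- cells and 3 against HFSCs, and it was 5 in Thy1hiYFP+ cells against DETCs. Without replicate 4 of both Thy1hi and Thy1- cells, 4 members were called in DETCs against Thy1hi cells, since S100a11 no longer passed, and the other counts did not move.

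**Figure D3:**
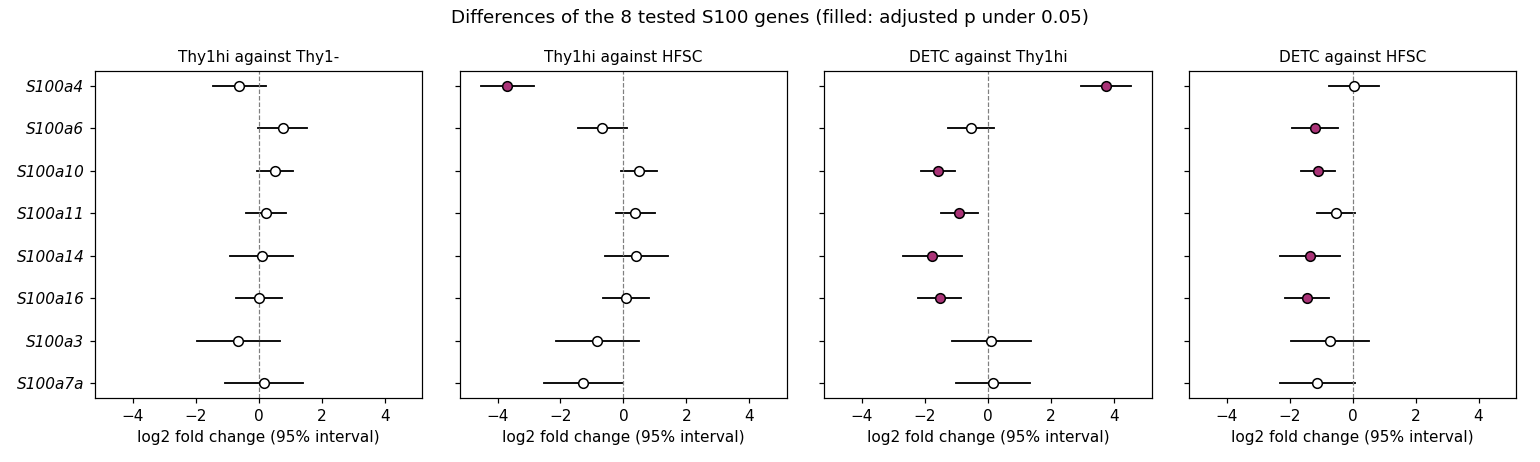
Log2 fold change (x axis) with its 95% interval for the 8 tested S100 genes (rows) in 4 comparisons (panels), filled where the adjusted p was under 0.05. S100a4 has the largest change, -3.70 in Thy1hi cells against HFSCs and 3.75 in DETCs against Thy1hi cells, and S100a10, S100a14 and S100a16 lie left of 0 in both DETC panels.

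The lower levels in DETCs stood beside keratinocyte transcripts in the same libraries. All 6 basal keratinocyte markers were called lower in DETCs than in Thy1hi cells, but their mean in DETCs was still 15.6% (Krt14) to 28.1% (Trp63) of the Thy1hi mean. The mean of each S100 gene was at a larger share: 33.9% for S100a10, 35.5% for S100a14, 37.8% for S100a16, 54.1% for S100a11 and 72.4% for S100a6. In DETC a, where Krt14 was at 4.41%, S100a14 was at 7.36%, S100a16 at 12.2%, S100a10 at 18.3%, S100a11 at 29.0% and S100a6 at 34.2%. DETC a was lowest of the 5 DETC libraries for all of these genes. Not all keratinocyte lists were lower in DETCs. The 11 suprabasal markers summed to 4987 to 30760 in DETCs and 12834 to 34546 in Thy1hi cells. Their median log2 difference was 0.30, with 1 called lower. The 7 infundibulum and sebaceous markers had a median of 0.87, with 1 called higher, and the stress markers one of -1.44, with 1 called lower. How much of the S100 signal in DETC libraries came from keratinocytes was not tested.

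**Figure D4:**
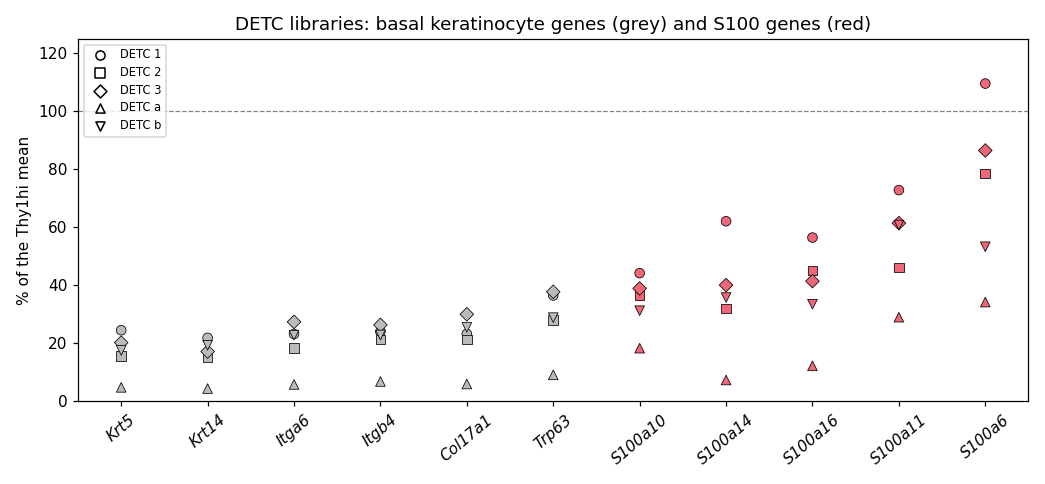
Normalized count in each DETC library (marker shape) as a percentage of the mean of the Thy1hi libraries (y axis, linear, from 0) for 6 basal keratinocyte genes (grey) and 5 S100 genes (red), with a dashed line at 100%. DETC a (upward triangle) is lowest for every gene, at 4.41% for Krt14 and 34.2% for S100a6.

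Ribosomal protein genes moved in the same direction. Their list of 85, taken by symbol after the values were seen, summed to 75053 to 131711 in DETCs and 126052 to 227187 in Thy1hi cells, and 57 of 77 tested were called lower in DETCs than in Thy1hi cells, with a median of -0.83. Their part in the S100 differences was not tested.

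S100a3 and S100a7a were near the limit of detection. S100a3 was 0.97 to 19.8 over all 20 libraries, from 1 to 15 reads, and was called in no comparison. S100a7a, the mouse psoriasin-like gene, was highest in HFSCs, at 16.2, 4.34, 21.4 and 11.9, against 1 to 11.0 in the other populations. HFSC replicate 2 fell within the values of the others. S100a7a was lower by -1.27 in Thy1hi (SE 0.60, adjusted p = 0.17), by -1.44 in Thy1- (SE 0.60, adjusted p = 0.15) and by -1.68 in Thy1hiYFP+ cells (SE 0.65, adjusted p = 0.10), none of which passed. Without HFSC replicate 2 the difference of the YFP+ cells passed (adjusted p = 0.045; 0.045 to 0.37 over 30 alternatives).

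S100a8 and S100a9, which form calprotectin, the abundant protein of neutrophils and of activated keratinocytes, were barely detected at this depth. S100a8 ranged from 0 to 8.97 and S100a9 from 0 to 12.0, that is, up to 9 and 12 reads, and the highest value of both was in YFP+ replicate 1. Summed neutrophil markers were also low, at 2.31 to 97.2. The 6 stress keratinocyte markers summed to 1689 to 22626 across the libraries.

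Levels can be set against each other only per length. Per kilobase of annotated exon, S100a11 had the highest mean of the 10 members in all 5 populations, with 1906 normalized counts per kb in Thy1hi cells, 1618 in Thy1- cells, 2205 in Thy1hiYFP+ cells, 1472 in HFSCs and 1030.2 in DETCs. S100a6 came next in HFSCs (1333 per kb) and DETCs (556 per kb), and S100a10 came next in Thy1hi (1297 per kb), Thy1- (920.2 per kb) and YFP+ cells (1193 per kb). In DETCs the mean of S100a4, 131 per kb, was above that of S100a16, 83.7 per kb. In Thy1hi cells S100a4 was 8.78 per kb and S100a16 222 per kb. The lengths pool all annotated exons of a gene, 511 bases for S100a11 and 1367 for S100a6, and can exceed the transcripts present. The order of genes depends on them. By normalized count alone, the HFSC mean was 1822 for S100a6 and 752 for S100a11.

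Across the 20 libraries, S100a10, S100a11, S100a14 and S100a16 varied together, with Pearson correlations of log2 values between 0.86 and 0.94. The same 4 genes had correlations of -0.53 to -0.63 with S100a4 and of 0.60 to 0.65 with S100a6. These describe 20 libraries that share populations and a normalization, and they carry no test. The genes most like S100a14 and S100a16 were led by Lgals7, the keratinocyte lectin galectin-7 (r = 0.97 with both), and then by Rpl10a and Urah for S100a14 and Aqp3 and Ckmt1 for S100a16. For S100a10 they were Rpl13 (0.97), Krt5 (0.96) and Rps26 (0.96), for S100a11 Dynlrb1, Eif4ebp2 and C77080 (each 0.93) and for S100a6 Rpl41, Nedd8 and Dcps (each 0.85). For S100a4 they were Farp1 (0.93), Enox1 (0.92) and Pygl (0.92), for S100a3 Slc26a8 (0.85), Bco1 and Rims1 (each 0.81), and for S100a7a, in low counts, the highest was 0.74 (Gm26189).

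The remaining S100 genes of the table were few. Of 7 others, S100a1 and S100a13 passed the filter. S100a1, best known from striated muscle, was 76.2, 95.6, 56.7 and 42 in HFSCs and 10.4 to 39.8 elsewhere, so that HFSCs did not overlap with the rest. It was lower than in HFSCs by -1.32 in Thy1hi (adjusted p = 0.017), -1.77 in Thy1- (adjusted p = 0.0049), -1.33 in Thy1hiYFP+ cells (adjusted p = 0.027) and -1.33 in DETCs (adjusted p = 0.0036). The Thy1hi call was lost with quantile normalization (0.070) and without HFSC replicate 2 (0.056) or Thy1hi replicate 2 or 3 (0.051 and 0.066), over a range of 0.0031 to 0.070. The Thy1hiYFP+ call was lost in 7 alternatives, among them without HFSC replicate 1 or 2 (0.064 and 0.078) or YFP+ replicate 1 or 3 (0.067 and 0.12), over a range of 0.0044 to 0.15. S100a1 shared with S100a4 the high level in HFSCs but not in DETCs. S100a13 was 115 ± 10.6 (SD, n = 5) in DETCs and 68.0 ± 13.3 (SD, n = 4) in HFSCs, higher by 0.77 in DETCs (adjusted p = 0.0042). It was also called higher in DETCs than in Thy1- cells (0.55, adjusted p = 0.038), a call lost in 11 alternatives. In Thy1hiYFP+ cells it was called lower than in DETCs, at 61.2 to 69.8 against 97.6 to 123. Between DETCs and Thy1hi cells it was not called.

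The fused-type S100 genes, which carry an S100 domain on a long repeat protein of the cornified layer, were all 7 tested. In the main fit limma called none of them in any comparison, with 1 at an unadjusted p under 0.05 in each of 3 comparisons, and edgeR and DESeq2 each called 1, in Thy1hiYFP+ cells against DETCs. That gene was Tchh (limma adjusted p = 0.061), higher in the YFP+ cells, which passed there in 8 alternatives including edgeR and DESeq2. Tchh also passed as lower in DETCs than in Thy1- cells in 5 alternatives (main adjusted p = 0.069), among them quantile normalization (0.035). In Thy1hi cells against Thy1- cells their median log2 difference was -0.95, and with the replicate block Hrnr (-1.67, adjusted p = 0.0040), Flg2 (-1.29, adjusted p = 0.0067) and Flg (-1.05, adjusted p = 0.019), which encode hornerin and the filaggrins, were lower in Thy1hi cells. Without the block their adjusted p-values were 0.45, 0.76 and 0.999. With it 6.61% of all genes were called in either direction. The summed level of the 11 suprabasal keratinocyte markers, 1 of which is Flg, was 12834 to 34546 in Thy1hi and 33309 to 48801 in Thy1- cells.

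Among 12 tested annexins and other partners, none was called between Thy1hi and Thy1- cells by limma, edgeR or DESeq2, with 2 at an unadjusted limma p under 0.05. Anxa2, the partner of S100a10, was 9367, 8621, 8029 and 8476 in Thy1hi cells and 7298, 4634, 6153 and 5791 in Thy1- cells, without overlap. Its log2 difference was 0.55 (SE 0.24, adjusted p = 0.61), and it was called with the replicate block (0.027), as were Anxa5 (0.53, 0.022) and Anxa11 (0.43, 0.046). That block called 6.61% of all genes, 3.42% higher in Thy1hi cells. Against HFSCs, 5 of the 12 were called in Thy1hi cells, where 13.4% of all genes were, 4 of them higher, namely Anxa11 (0.85, adjusted p = 0.015), Anxa2 (0.84, adjusted p = 0.026), Myh9 (0.81, adjusted p = 0.019), the myosin heavy chain bound by S100a4, and Iqgap1 (0.64, adjusted p = 0.043). Anxa6 was lower, by -1.44 (adjusted p = 0.0034). Each of the 4 higher calls was lost when only these populations were fitted (0.056 for Anxa11, 0.059 for Anxa2, 0.097 for Myh9 and 0.11 for Iqgap1). The Anxa2 call was also lost without HFSC replicate 4 (0.077) or Thy1hi replicate 1 or 2 (0.075 and 0.058), that of Myh9 without Thy1hi replicate 2 or 3 (0.058 and 0.055), and that of Iqgap1 in 20 alternatives. The ranges over alternatives were 0.0043 to 0.056 for Anxa11, 0.0066 to 0.077 for Anxa2, 0.00083 to 0.13 for Myh9 and 0.0073 to 0.12 for Iqgap1.

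In DETCs against Thy1hi cells, 3 of the 12 partners were called higher and 4 lower, where 19.9% of all genes were called higher and 16.6% lower. Anxa6 was higher by 3.12 (SE 0.29, adjusted p = 4.37e-08), Anxa11 by 1.74 (SE 0.21, adjusted p = 1.70e-06) and Sugt1 by 0.98. Anxa2 was lower by -1.55 (SE 0.23, adjusted p = 2.08e-05), Anxa1 by -1.49 (SE 0.37, adjusted p = 0.0031), Ppp5c by -0.95 and Anxa5 by -0.76. Anxa2 and Anxa1, the partners of S100a10 and S100a11, were lower in DETCs together with those genes, while Anxa6 and Anxa11 were highest there. Anxa6 was 459 to 999.96 in DETCs and 33.7 to 391 elsewhere, and Anxa11 was 1599 to 2925 in DETCs and 186 to 613 elsewhere.

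**Figure D5:**
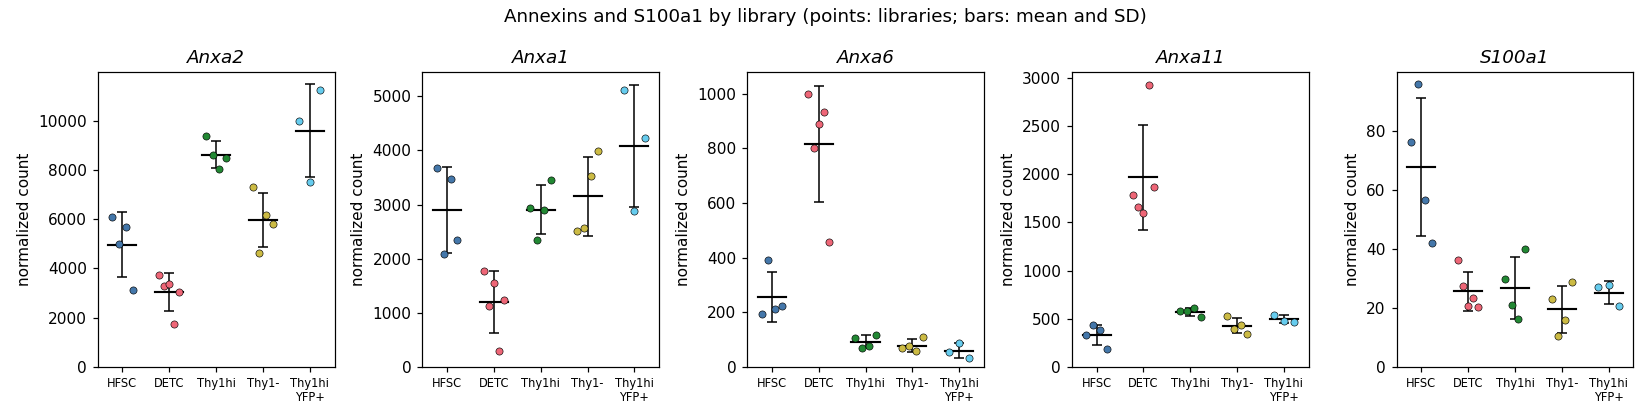
Normalized count (y axis, linear, from 0) of Anxa2, Anxa1, Anxa6, Anxa11 and S100a1 in each library (points) of the 5 populations, with mean and SD as bars. Anxa2 is 8029 to 9367 in Thy1hi cells and 1752 to 3750.3 in DETCs, Anxa6 and Anxa11 are highest in DETCs, and S100a1 in HFSCs.

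Genes for receptors and surface partners of released S100 proteins were few. Ager, the receptor for advanced glycation end products, was at most 13.3 and Tlr4 at most 16.2 in any library. Bsg, which encodes basigin, was 1164 ± 251 (SD, n = 4) in Thy1hi cells and 623 ± 52.3 (SD, n = 5) in DETCs, lower by -0.88 in DETCs (adjusted p = 0.0018), and Cd68 was higher there by 2.12 (adjusted p = 0.00060). Alcam was 826 ± 206 (SD, n = 4) in HFSCs and 91.9 ± 10.9 (SD, n = 4) in Thy1hi cells, a log2 difference of -3.13 (adjusted p = 2.79e-06). Of the 7 receptors tested, Alcam was the one called in Thy1hi or Thy1- cells against HFSCs, where 13.4% and 6.08% of all genes were. Between Thy1hi and Thy1- cells Alcam did not pass (adjusted p = 0.082), at 76.2 to 100.8 against 165.4 to 345.9 without overlap. It was called there in 3 alternatives: DESeq2 (-1.51, adjusted p = 0.0013), only these populations (0.048) and without DETC a (0.0053).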

How the data were processed

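Bulk RNA-seq of 20 libraries was analysed from 1 deposited table. Per the study's methods and processing notes, the authors used STAR for alignment (mm10), featureCounts for counting and DESeq2 for normalization, and the deposited signal is normalized counts with 2 decimals. The kit's strand setting in counting is not given in the sources used here. Whole reads (tolerance 0.0051) were recovered for 100% of values. In Thy1- replicate 4, 3212 genes stood in other rows (none an S100 gene) and were put back. All value columns were used, and 2 DETC columns that match no label are named a and b.

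Genes with at least 10 in at least 3 libraries were fitted with limma 3.58.1 (trend, log2 with pseudocount 1, all libraries, two-sided, threshold 0.05) in R 4.3.3. Alternatives were edgeR 4.0.16 and DESeq2 1.42.0 on recovered reads, other pseudocounts and filters, scaling to the same total without Rn45s, quantile normalization, only the populations compared, the replicate block, the deposited row order and leaving out each library. The fit was tried on simulated counts with independent libraries and a common spread. Those counts had no pairing, batch or outlying libraries, so the trial does not bear on them. Exact permutation tests compared mean log2 values. Libraries of Thy1hi and Thy1- cells with the same number had deviations correlated at 0.293 to 0.716 (other combinations -0.651 to 0.514). Those of HFSCs and DETCs were at 0.170 to 0.333 (other combinations -0.248 to 0.371). Numbers were taken to pair both because every same-number pair exceeded 0.1. For HFSCs and DETCs another combination exceeded every same-number pair, so the pairing is uncertain there. In no other comparison did every pair exceed 0.1. Labels do not say that libraries came from separate mice, so p-values measure the spread between libraries. The members, gene lists and tests were chosen with earlier results of these data known. Named genes are the members, the genes of the lists, and the 3 genes most correlated with each tested member.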

Additional observations from a re-analysis of the deposited data

How the results depend on the processing

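Over the log2 differences of single genes under each alternative, 1237 kept direction and side of the threshold, 23 lost a call, 15 gained one and 2 reversed. The number of members called moved as follows. With the replicate block it was 1 between Thy1hi and Thy1- cells (main 0), 1 between Thy1- cells and HFSCs (main 2; also 1 with only those populations, and without a block over shared numbers) and 1 between Thy1hiYFP+ and Thy1- cells (main 0; also 1 with DESeq2, with only those populations, and without a block over shared numbers). With the block, or without it over the same libraries, it was 5 for DETCs against Thy1- cells (main 4), where S100a6 was called higher in DETCs (0.72; adjusted p = 0.0025 with the block), although the numbers pair no libraries there. The unblocked fit over shared numbers was added after seeing the data. In the paired comparisons the block changed the call of no S100 member other than S100a6 and S100a11, as given above. With a mean of at least 50, which removes S100a4 from the test, it was 0 for Thy1hi cells and 0 for Thy1hiYFP+ cells against HFSCs, and 1 for Thy1- cells, and it was 4 for DETCs against Thy1hi cells (main 5), 3 against Thy1- cells (main 4) and 5 for Thy1hiYFP+ cells against DETCs (main 6). With only DETCs and HFSCs fitted it was 2 (main 4). With each library left out it ranged from 1 to 2 for Thy1hi cells, Thy1- cells and Thy1hiYFP+ cells against HFSCs, 0 to 1 for Thy1hiYFP+ against Thy1- cells, 4 to 5 for DETCs against Thy1hi or Thy1- cells, 3 to 5 for DETCs against HFSCs, 4 to 6 for Thy1hiYFP+ cells against DETCs, and 0 to 0 for the other comparisons. The count for Thy1hiYFP+ cells against HFSCs was 2 without DETC a or HFSC replicate 2. S100a6 in DETCs against Thy1hi cells reversed to 0.0099 with the block and to 0.0099 in the same libraries without it, which leave out DETC a and b, and its adjusted p was at least 0.085 in all alternatives. The cause was not tested. Over all genes, the count called between Thy1hi and Thy1- cells was 58 and ranged from 9 to 1137, and between Thy1- cells and HFSCs 1046 (329 to 2577), Thy1hi cells and HFSCs 2300 (1369 to 3394), Thy1hiYFP+ cells and HFSCs 1991 (937 to 2748), Thy1hiYFP+ and Thy1- cells 131 (10 to 552) and Thy1hiYFP+ and Thy1hi cells 2 (0 to 102). Rescaling to the same total without Rn45s moved the median of all genes from -0.09 to -0.24 in DETCs against Thy1- cells and from 0.04 to 0.17 in Thy1- cells against HFSCs, and changed the split of higher and lower calls from 3250 and 2621 to 2794 and 3359 in the first and from 440 and 606 to 835 and 483 in the second. S100a3, S100a7a, S100a8 and S100a9 had at most 20 reads in any library, so the counts limit what could be resolved between populations.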
